A study of Drosophila melanogaster with 30 samples.

Results

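The cytoplasmic ribosomal protein genes of Drosophila melanogaster encode the protein parts of the ribosomes that translate the cell's own messenger RNAs. They were taken as all rows of the deposited count table whose gene name starts with RpL or RpS followed by a number, or with RpLP, without the mitochondrial (mRp) genes, the kinases and the genes named -like. This rule gave 87 of the 17559 genes in the table, 50 of the large and 37 of the small subunit. The genes lie on every major chromosome arm, with 17 on 2L, 19 on 2R, 14 on 3L, 22 on 3R, 1 on 4 and 14 on X in dm6 coordinates.

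A ribosome needs close to equal amounts of its proteins, and cells make their transcripts in step and in large amounts. In flies, losing a single copy of many of these genes gives the Minute phenotype of slow growth and thin bristles. Many of the genes also carry small nucleolar RNA (snoRNA) genes in their introns, whose products guide the modification of ribosomal RNA. In neurons, new protein synthesis is needed for long-term memory.

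RNA from nuclei was sequenced in 30 libraries that the labels assign to the mushroom body, where flies form and store memories of odours. The 10 groups of 3 libraries were naive and activated flies of the line MB131, of MB131 with RNA interference (RNAi) against the histone demethylase gene Kdm4B, of the line MB477, of MB477 with the same RNAi, and of flies lacking CsChrimson, a light-gated cation channel. Activated flies had 5 min of optogenetic activation, for which the protocol names red light, and then 10 min of rest, and the others are labelled naive. The series title names the search for Kdm4B target genes as the purpose. All groups share the strain label CS10, which is missing for 1 library of naive MB477 with RNAi. Nuclei were pulled out of whole-head homogenate with an anti-FLAG gel and polyadenylated RNA was selected. The labels do not state the cells that carried the tag, the drivers of the transgenes, the sex or age of the flies, or the line of the flies lacking CsChrimson. They also do not say that the libraries of a group came from separate flies, so p-values here measure the spread between libraries, which may be technical.

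Libraries held 8291599 to 14344348 counts. The 3 naive MB477 libraries stood apart from the others on the first principal component of all tested genes, at 64.2 to 68.0 against -25.5 to 22.9, and every comparison that uses them is given with that in view. Kdm4B had 2 to 26 reads per library, too few to check the knockdown by its own transcript. Markers of other head tissues were abundant: the summed level of 13 photoreceptor markers ran from 11762 to 27638 CPM (counts scaled to library size) over libraries and that of 12 Kenyon cell markers, the neurons of the mushroom body, from 3203 to 5530 CPM. In such bulk samples, fewer cells of a type and less RNA per cell cannot be told apart.

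Together the 87 genes took 2.72% to 5.27% of all counts of a library. In naive MB131 flies the share was 3.28%, 3.10% and 2.94%, and in activated MB131 flies 3.25%, 3.28% and 3.39%. With RNAi it was 2.88%, 2.72% and 2.75% in naive and 3.11%, 3.27% and 3.05% in activated MB131 flies. The 2 MB131 groups without RNAi overlapped in this share and the 2 groups with RNAi did not. In MB477 the order was the other way: naive libraries held 5.27%, 5.02% and 4.97%, and activated ones 4.04%, 4.02% and 3.97%. With RNAi the MB477 shares were 3.45%, 3.57% and 3.39% in naive and 4.20%, 4.04% and 4.01% in activated flies, so activated libraries were again the higher ones. Flies lacking CsChrimson had 2.77%, 3.13% and 3.02% when naive and 3.05%, 3.13% and 3.03% when activated, with overlapping groups. The naive MB477 libraries were thus the highest of the 30 in the share taken by these genes. These shares are descriptions and were not tested.

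**Figure D1:**
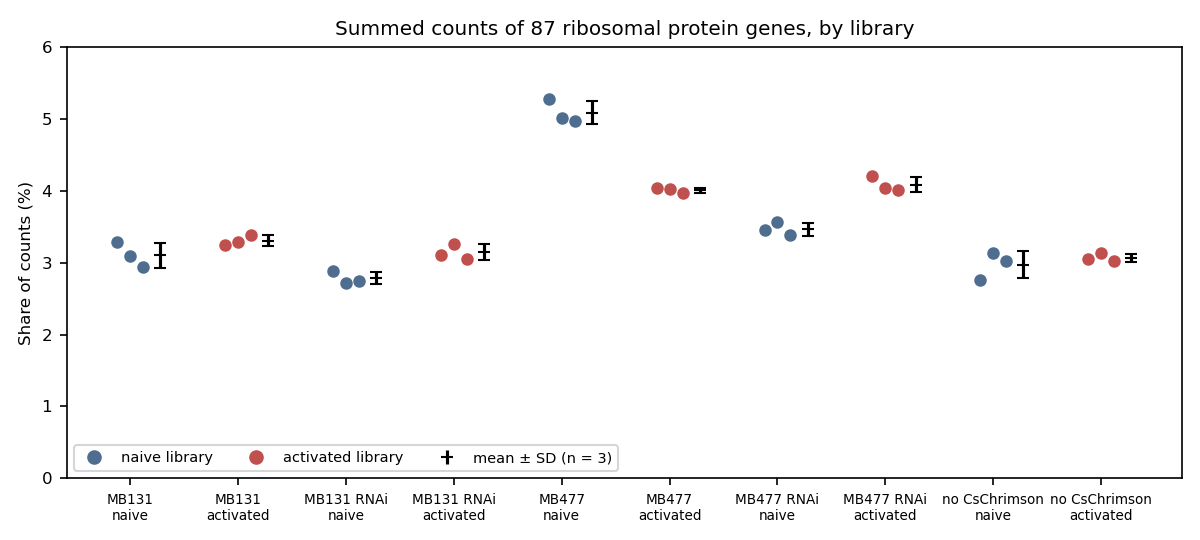
Share of all counts (%) taken by the 87 ribosomal protein genes in each of the 30 libraries (points; blue naive, red activated), with the mean and SD of each group of 3 beside them. Naive MB477 libraries sit highest at 4.97% to 5.27%, and activated libraries sit above naive ones without overlap in both RNAi lines.

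Of the 87 genes, 82 passed the filter on low counts and were tested among 11457 genes. Their median level was 409.1 CPM, against 23.3 CPM for all genes tested. Between replicates their median SD was 0.07 on the log2 CPM scale, against 0.15 for all genes tested. This spread was not compared with that of genes of like level. The 5 that did not pass were all lesser copies of a duplicated gene. RpL37b had no count in any library, which allows up to 3 counts or 0.00876 CPM over all libraries together. RpL10Aa had 5 counts in all, RpS28a 19, RpS19b 35 and RpS10a 44. RpS5b, which flies use mainly in the ovary, passed with 173 counts in all, or 0.505 CPM. The 10 germline markers listed for comparison summed to at most 34.2 CPM in any library.

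Levels per length were compared among the genes as CPM per kilobase of summed exon length, in naive MB131 flies. This length joins the exons of all transcripts of a gene, and the order depends on it. RpL3, for example, has 2231 bases of summed exons and a shortest transcript of 715 bases, so it would rank higher by the latter. RpL41, which encodes the smallest ribosomal protein and bridges the subunits, had the highest level at 790 ± 100.2 CPM per kilobase (SD, n = 3). RpL23 (642 ± 60.8), RpL7A (621 ± 42.2), RpL35A (599 ± 36.2) and RpL14 (589.6 ± 41.4) came next and did not differ from one another beyond their spread. RpS5b (0.626 ± 0.0768), RpS15Ab (22.7 ± 2.36), RpL38 (93.4 ± 8.43), RpL34a (104 ± 11.7) and RpS21 (148 ± 13.9) were the lowest of the 82. By summed exon length RpL38 and RpL34a did not differ beyond their spread. Their shortest transcripts have 401 and 603 bases against summed exons of 1013 and 621, so by shortest transcript RpL38 would stand above RpL34a. The order of levels in the other groups was close to that of naive MB131, with Spearman correlations across the 82 genes of 0.967 to 0.993, and 0.886 for naive MB477. These correlations share gene lengths and the count table and are given as descriptions.

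Most of the genes moved together over the 10 groups. The first principal component of the 82 genes held 87.2% of their variance over libraries. The mean level was highest in naive MB477 flies for 71 of the 82 genes, in activated MB477 flies for 8 and in activated MB477 flies with RNAi for 3, and it was lowest in naive MB131 flies with RNAi for 76. Leaving out RpS5b, the highest group stood 1.397 to 2.61 times above the lowest, with a median of 2.05. RpS15Ab (1.397), RpS3A (1.42) and RpL22 (1.499) spanned the least. RpL39 (2.61) and RpL34a (2.45) were among the genes that spanned the most.

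**Figure D2:**
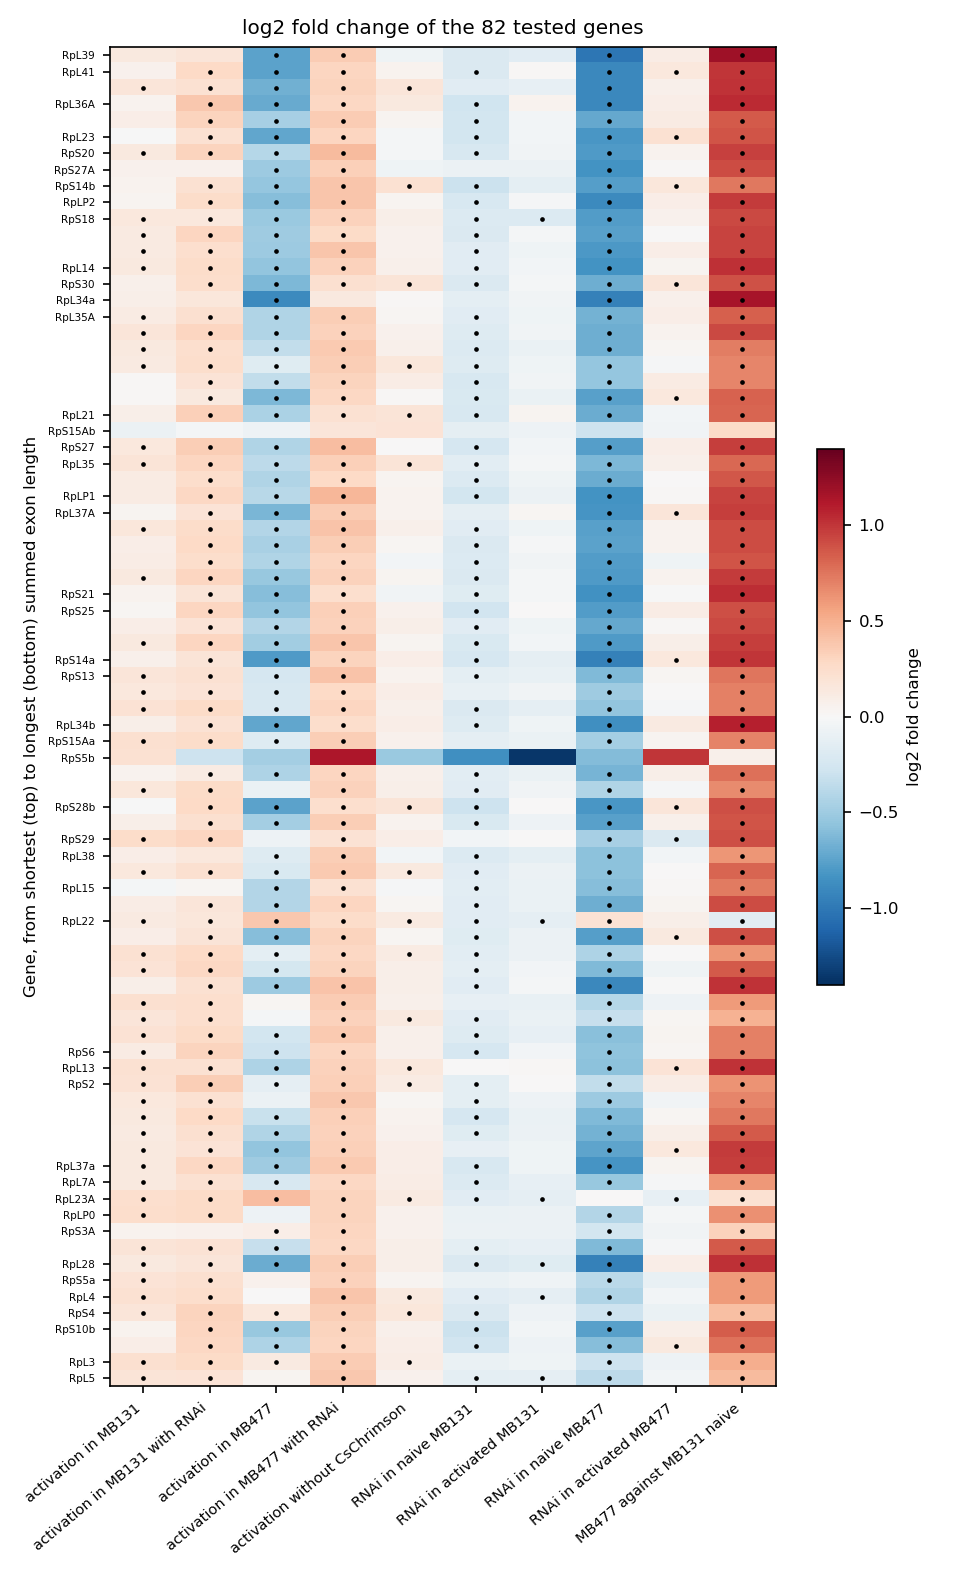
Log2 fold change of the 82 tested genes (rows, from the shortest to the longest summed exon length, with names for some of the genes described) in 10 comparisons (columns), with red for higher and blue for lower in the group named and a black dot where edgeR's adjusted p was under 0.05. Red fills the columns of activation in both RNAi lines and of MB477 against MB131, while blue fills those of activation in MB477 and of RNAi in naive MB477, apart from a few genes such as RpL22 and RpL23A.

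Ribosomal protein transcripts were higher in activated than in naive MB131 flies. Of the 82 genes, 46 passed as higher after activation and 0 as lower by edgeR's quasi-likelihood test with Benjamini-Hochberg adjustment over all genes, against 12.7% of all genes tested higher and 11.8% lower. No gene was lower at an unadjusted p under 0.05 or by DESeq2 either, and 54 were higher at that unadjusted level. The median log2 change was 0.13, where that of all genes was 0.00. Both subunits took part, with 28 of 48 large and 18 of 34 small subunit genes higher. Scaling by total counts left 22 genes called, and leaving out naive replicate 3 also left 22. The authors' deposited table called 34 of the 87 higher and 0 lower at a q-value under 0.05.

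RpS29, a small zinc-binding protein of the small subunit head, had 285, 226 and 245 CPM in naive and 287, 310.5 and 309 CPM in activated MB131 flies. The activated libraries were higher without overlap, as were those of 39 of the 82 genes, against 18% of all genes tested. The log2 change of RpS29 was 0.26 ± 0.05 (SE; edgeR adjusted p = 2.47e-05). RpLP0, the base of the stalk to which translation factors dock, went from 556, 491 and 490.3 CPM to 613, 615 and 602 CPM. Its change was 0.25 ± 0.04 (edgeR adjusted p = 7.59e-07). Next in size were RpL23A, at the mouth of the peptide exit tunnel (0.24 ± 0.04, edgeR adjusted p = 3.25e-06), and RpL3, close to the peptidyl transferase centre (0.23 ± 0.04, edgeR adjusted p = 8.61e-07). The other proteins of the stalk, RpLP1 (0.11) and RpLP2 (0.04), did not pass the test.

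With RNAi, 74 of the 82 genes were higher in activated than in naive MB131 flies and 0 lower (background 13.8% higher and 13% lower). No gene was lower at an unadjusted p under 0.05 or by DESeq2 either. The median log2 change was 0.24, and activated libraries lay above naive ones without overlap for 74 genes, against 19.6% of all genes. The largest changes were those of RpL36A (0.37 ± 0.05, edgeR adjusted p = 9.74e-09), RpS2, which lines the entry of the messenger RNA channel (0.35 ± 0.04, edgeR adjusted p = 4.35e-11), RpS27 (0.35 ± 0.06, edgeR adjusted p = 7.39e-07) and RpL21 (0.33 ± 0.05, edgeR adjusted p = 2.09e-08). RpL36A had 161, 158 and 155 CPM in naive and 209, 205 and 199 CPM in activated flies. In the same line without RNAi its libraries overlapped, at 208, 186 and 179 CPM when naive and 189, 206 and 199.6 CPM when activated.

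The difference between these responses was tested as an interaction. In MB131, 7 genes rose more with activation under RNAi than without it and 0 rose less (background 3.26% and 2.79%); at an unadjusted p under 0.05 these were 27 and 0, and DESeq2 also called 7 and 0. They included RpL36A (0.32 ± 0.08, edgeR adjusted p = 0.00226), RpS28b (0.29 ± 0.07), RpS25 (0.27 ± 0.06), RpS10b (0.26 ± 0.06) and RpS6 (0.19 ± 0.06, edgeR adjusted p = 0.0361). RpS6 is the small subunit protein phosphorylated by S6 kinase. All 7 also fell with RNAi in naive flies, and both tests use the same naive libraries. Without MB131 naive replicate 1, RNAi naive replicate 2 or RNAi activated replicate 2, 4 genes were called, and without MB131 naive replicate 3, 16.

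Activation in flies lacking CsChrimson, which cannot respond to light through the channel, went with higher levels of 17 of the 82 genes and lower levels of 0 (background 11.1% higher and 9.98% lower; 24 and 0 at an unadjusted p under 0.05, and 15 and 0 by DESeq2). The median log2 change was 0.07, and 21 genes were higher without overlap of the groups, against 16.6% of all genes. The largest changes were those of RpS14b (0.22 ± 0.06, edgeR adjusted p = 0.00192), RpS28b (0.18 ± 0.05, edgeR adjusted p = 0.0037), RpL35 (0.18 ± 0.05, edgeR adjusted p = 0.00413) and RpS30 (0.18 ± 0.05, edgeR adjusted p = 0.00224). RpS14b, a platform protein of the small subunit, had 129, 145 and 134 CPM in naive and 162, 166 and 147 CPM in activated flies. This count rested on naive replicate 1, the lowest of its group in summed share: without it 2 genes were called, and RpS28b (0.11), RpL35 (0.13) and RpS30 (0.13) were not. RpS28b was also lost without activated replicate 2 (0.14). Without activated replicate 1 or 2, 11 genes were called. Scaling by total counts gave 7 genes and a fit of these groups alone gave 8.

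The response of MB131 differed from that of flies lacking CsChrimson in 1 of the 82 genes, RpLP0, which rose more in MB131, by a log2 difference of 0.19 ± 0.06 (edgeR adjusted p = 0.0316; background 2.7% higher and 3.53% lower). At an unadjusted p under 0.05 the difference was positive for 9 genes and negative for 2, and DESeq2 called 1 gene. The median difference over the genes was 0.06, with a typical SE of 0.07 per gene, so differences of this size were within the error of most genes. The call on RpLP0 was lost without MB131 naive replicate 2 or 3, MB131 activated replicate 1 or 2, the naive replicate 2 or the activated replicate 2 or 3 of the flies lacking CsChrimson, under total-count scaling, and in a fit of these groups alone. Its changes there were 0.16 to 0.19. Without the naive replicate 1 of the flies lacking CsChrimson 5 genes were called, and without MB131 naive replicate 1, 3.

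In MB477 the direction was the reverse. Activated flies had lower levels than naive flies for 66 of the 82 genes and higher levels for 5 (background 27.7% lower and 31.8% higher), with a median log2 change of -0.42. Of the large subunit genes 38 of 48 fell and 3 rose, and of the small subunit genes 28 of 34 fell and 2 rose. For 67 genes the activated libraries lay below the naive ones without overlap and for 4 above them, against 30.4% and 33.4% of all genes. Of all genes, 59.5% passed the test in this comparison, which uses the naive MB477 libraries that stood apart.

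The genes that fell most were RpL34a (-0.89 ± 0.08, edgeR adjusted p = 6.13e-15), RpS14a (-0.79 ± 0.05, edgeR adjusted p = 9.43e-30), RpL39 (-0.75 ± 0.08, edgeR adjusted p = 4.08e-11) and RpL41 (-0.75 ± 0.05, edgeR adjusted p = 4.13e-21). RpL39 lines the peptide exit tunnel, and RpS14a sits on the platform of the small subunit. In CPM, RpL34a went from 147, 147 and 138 to 73.5, 79.0 and 80.5. RpS14a went from 725, 679 and 683 to 411, 395 and 397. RpL39 went from 202, 167 and 169 to 107, 107 and 106. The groups did not overlap for any of these genes. Naive MB477 flies with RNAi were also below the naive flies without it, with 75.1, 78.1 and 70.6 CPM for RpL34a.

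The 5 genes that rose in MB477 were RpL23A, RpL22, RpS4, RpL3 and RpS3A. RpL23A, to which the signal recognition particle docks, went from 849.8, 860.4 and 836 CPM to 1138, 1168 and 1129 CPM, a log2 change of 0.43 ± 0.04 (edgeR adjusted p = 3.2e-16). RpL22, which lies on the outer face of the large subunit near the tunnel exit, went from 507, 493 and 499 CPM to 661, 628 and 654 CPM, a change of 0.37 ± 0.04 (edgeR adjusted p = 4.03e-12). Neither gene's groups overlapped. The changes of RpS4 (0.14 ± 0.04, edgeR adjusted p = 0.00193), RpL3 (0.13 ± 0.04, edgeR adjusted p = 0.00204) and RpS3A (0.10 ± 0.04, edgeR adjusted p = 0.0419) were smaller, and the libraries of RpS3A overlapped. In the authors' deposited table the log2 changes for this comparison were 0.36 for RpL22, 0.42 for RpL23A, -0.90 for RpL34a, -0.81 for RpS14a and -0.77 for RpL39, and the table called 5 members higher and 69 lower of the 87 at a q-value under 0.05.

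All 5 of the genes that rose in MB477 are among the 28 tested members whose span holds snoRNA genes on the same strand. These 28 hold 74 such genes, counted with any small nuclear RNA genes. Not all are purely intronic, and some share exon bases with the member, such as 84 in RpL3 and 97 in RpL23A. Of the 28, 19 fell and the median log2 change was -0.30. Of the 54 without such genes, 47 fell and 0 rose, with a median of -0.46. The 28 were also longer, with a median summed exon length of 1059 bases against 849.5. RpL22 (X from 762560 to 765130) shares 377 exon bases with the long noncoding RNA gene lncRNA:CR42491 on its own strand. RpL23A (3L from 1666288 to 1668654) shares 421 with the snoRNA host gene Uhg7 on its own strand and 121 with CG7974 on the other. RpL3 (3R from 11221894 to 11225173) shares 412 with asRNA:CR31144 on the other strand. Whether counting used strand is not stated, and the counts of these 3 genes are uncertain to that extent. In all, 28 of the 87 members share exon bases with another gene, 23 of them on the opposite strand.

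**Figure D3:**
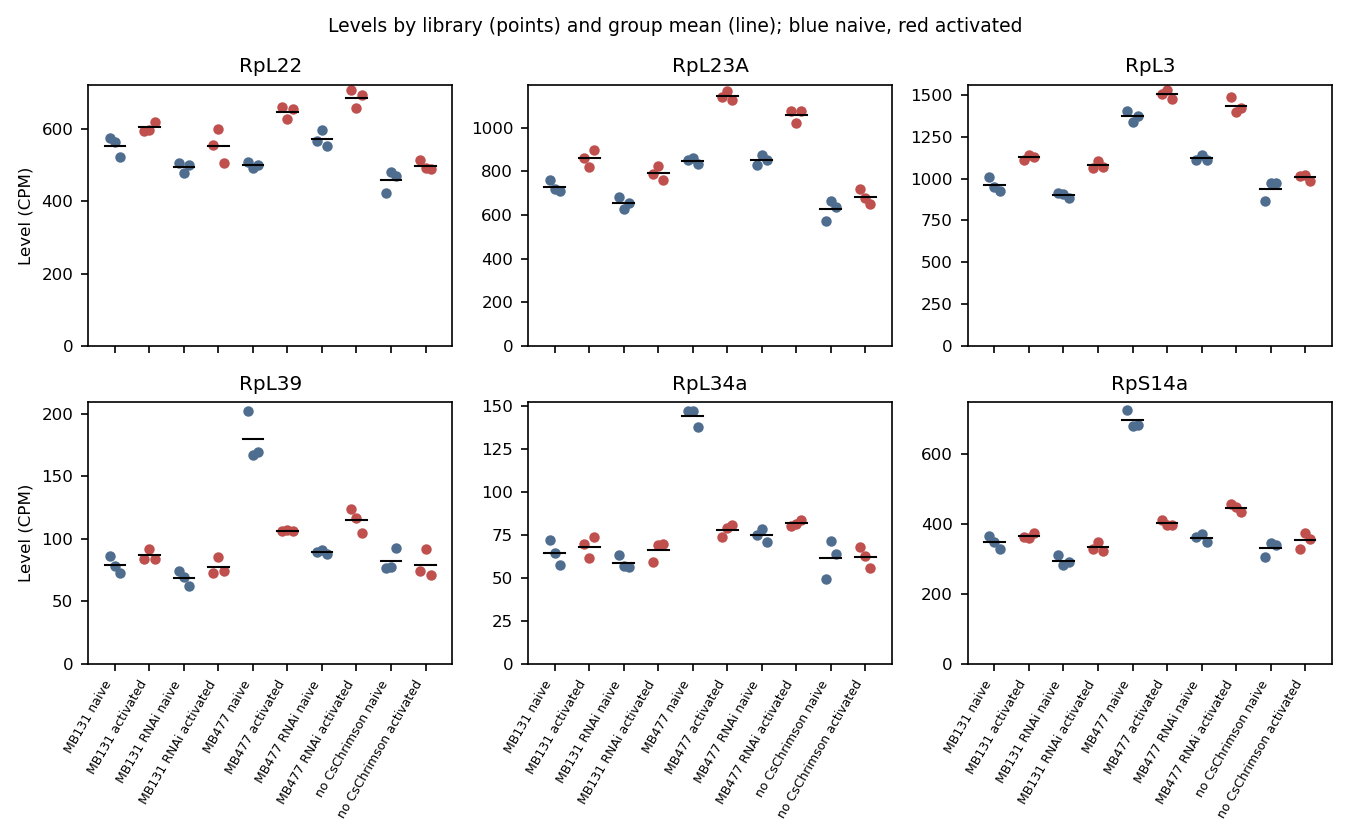
Level in CPM of 6 genes in each library (points; blue naive, red activated), with the group mean as a line, for the 10 groups. RpL22, RpL23A and RpL3 are higher in activated than naive flies in all 5 pairs of groups, while RpL39, RpL34a and RpS14a stand highest in naive MB477 flies.

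With RNAi in MB477, 79 of the 82 genes were higher in activated than in naive flies and 0 lower (background 15.6% higher and 13.1% lower). No gene was lower at an unadjusted p under 0.05 or by DESeq2 either. The count of 79 was the largest among the 5 activation comparisons. The median log2 change was 0.33, and the genes lay close together, with an interquartile range of 0.06 against 0.41 for all genes tested. For 81 genes the activated libraries lay above the naive ones without overlap, against 20.4% of all genes. The 3 genes not called were RpL34a (0.13 ± 0.09), RpS15Ab (0.17 ± 0.14) and RpS5b (1.13 ± 0.79). RpLP1 of the ribosomal stalk rose most, by 0.46 ± 0.05 (edgeR adjusted p = 6.9e-15), from 385, 405 and 398 CPM to 560.0, 541 and 537 CPM. RpS20 (0.45 ± 0.05, edgeR adjusted p = 8.82e-13), RpS27 (0.44 ± 0.06, edgeR adjusted p = 7.66e-10) and RpS13 (0.40 ± 0.05, edgeR adjusted p = 1.42e-11) followed, all of the small subunit.

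The interaction of RNAi with activation in MB477 was positive for 78 of the 82 genes and negative for 0 (background 24.7% higher and 26.9% lower), with a median of 0.74. At an unadjusted p under 0.05 it was positive for 78 and negative for 1, and DESeq2 called 78 and 0. RpL39 (1.11 ± 0.12, edgeR adjusted p = 3.26e-11), RpS14a (1.10 ± 0.07), RpL41 (1.05 ± 0.08) and RpL28 (1.04 ± 0.07) differed most. RpL22 (-0.11 ± 0.06, edgeR adjusted p = 0.127) and RpL23A (-0.12 ± 0.06, edgeR adjusted p = 0.0833) were not called. Against flies lacking CsChrimson, the response of MB477 without RNAi was lower for 67 genes and higher for 2 (background 20.2% and 26.6%), with a median of -0.46. The 2 were RpL23A (0.30 ± 0.06, edgeR adjusted p = 8.03e-06) and RpL22 (0.25 ± 0.06, edgeR adjusted p = 0.000518), and the largest negative differences were those of RpS28b (-0.93 ± 0.07), RpL34a (-0.91 ± 0.12), RpS14a (-0.89) and RpL36A (-0.84). Both interactions rest on the naive MB477 libraries.

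The 5 activation comparisons share no libraries. RpL22, RpL23A, RpL3 and RpS4 were higher in all 5, and they are 4 of the 276 genes of which this held among all genes tested (2.41%). In the 4 comparisons other than MB477 without RNAi, 13 genes were higher (background 3.12%). In MB131, MB131 with RNAi and MB477 with RNAi, 46 were higher (background 5.04%), which is every gene called in MB131. RpL3 had 1007, 949.7 and 928 CPM in naive and 1111, 1140.3 and 1129 CPM in activated MB131 flies. In flies lacking CsChrimson it had 865, 975 and 973 CPM when naive and 1013, 1021 and 986 CPM when activated.

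Markers in several lists were called in these comparisons too. Of all genes tested, 12.7% were higher and 11.8% lower in MB131, and 13.8% and 13% with RNAi. In MB477 these were 31.8% and 27.7%, and 15.6% and 13.1% with RNAi. Without CsChrimson they were 11.1% and 9.98%. Photoreceptor markers were higher after activation for 13 of 13 genes in MB131, 13 with RNAi, 11 in MB477 with 1 lower, 8 with RNAi and 13 without CsChrimson, and their summed level went from 16274 to 16841 CPM in naive to 25723 to 26039 CPM in activated MB131 libraries. Muscle markers were lower for 11 of 12 in MB131, 12 with RNAi, 7 in MB477 with 2 higher and 8 without CsChrimson, but higher for 12 of 12 in MB477 with RNAi. Their summed level there went from 5546 to 5686 CPM up to 7313 to 7677 CPM. Fat body markers were higher for 6 of 7 in all but the flies lacking CsChrimson, with 1 lower in MB477. Without CsChrimson 1 was higher and 2 lower. Of 12 Kenyon cell markers, 8 were lower and 0 higher in MB131, 2 and 2 with RNAi, 6 and 6 in MB477, 7 and 1 with RNAi, and 2 and 6 without CsChrimson. Cuticle and epidermis genes were lower for 34 of 47 and higher for 2 in MB477, with a median log2 change of -1.18, and their summed level went from 2459 to 2549 CPM in naive to 1477 to 1524 CPM in activated libraries. They were lower for 15 and higher for 3 in MB131, 17 and 3 with RNAi, 9 and 9 in MB477 with RNAi, and 8 and 6 without CsChrimson. Of 10 glial markers, 7 were higher and 2 lower in MB477, 2 and 4 in MB131, 2 and 5 with RNAi in either line, and 3 and 3 without CsChrimson. Of 8 neuronal markers, 5 were higher and 2 lower in MB477, 5 and 1 in MB131, and 5 and 0 in MB131 with RNAi. They were 1 and 3 in MB477 with RNAi and 6 and 0 without CsChrimson. No photoreceptor, muscle or Kenyon cell marker was at 0 in any group, while 21 to 26 of the 96 listed cuticle genes were. Their part in the ribosomal protein results was not tested.

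RNAi alone went with lower levels. In naive MB131 flies, 65 of the 82 genes fell with RNAi and 0 rose (background 6.12% lower and 4.92% higher; 76 and 0 at an unadjusted p under 0.05, and 57 and 0 by DESeq2). The median log2 change was -0.18, and for 59 genes the RNAi libraries lay below the others without overlap, against 13.1% of all genes. RpS14b (-0.30 ± 0.06, edgeR adjusted p = 2.69e-05), RpS10b (-0.30 ± 0.05, edgeR adjusted p = 2.93e-07), RpS28b (-0.28 ± 0.05, edgeR adjusted p = 9.6e-06) and RpL36A (-0.28 ± 0.05, edgeR adjusted p = 8.48e-05) fell most. RpS14b had 166, 159 and 145 CPM without and 129, 125 and 128 CPM with RNAi. Without MB131 naive replicate 1, 25 genes were called, and without replicate 2 of the RNAi group 40. Muscle markers fell for 11 of 12, fat body markers for 4 of 7 and photoreceptor markers for 9 of 13, with 1 higher, in the same comparison, and their part was not tested.

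After activation the effect of RNAi in MB131 was small. It lowered 6 genes and raised 0 (background 5.65% lower and 5.84% higher; 21 and 0 at an unadjusted p under 0.05, and 5 and 0 by DESeq2), with a median of -0.06. The share of members called lower, 6 of 82, was near the background. RpS18, of the small subunit head, went from 391, 408 and 399.8 CPM to 352, 354 and 347 CPM, a log2 change of -0.19 ± 0.04 (edgeR adjusted p = 0.00136). RpL28 (-0.17 ± 0.05, edgeR adjusted p = 0.0102), RpL5 of the 5S ribonucleoprotein (-0.13 ± 0.04, edgeR adjusted p = 0.018) and RpL22 (-0.13 ± 0.04, edgeR adjusted p = 0.0451) came next, with RpL4 (-0.12) and RpL23A (-0.12) the last called. Leaving out activated replicate 3 of MB131 or replicate 1 of the RNAi group left 1 gene called, leaving out replicate 3 of the RNAi group left 2, and leaving out its replicate 2 gave 10. In the same comparison muscle markers fell for 12 of 12 (median -0.86) and photoreceptor markers for 9 of 13, and Kenyon cell markers rose for 6 of 12; their part was not tested. The authors' deposited table called 8 of the 87 lower and 0 higher here, with its sign turned to read as RNAi minus no RNAi.

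In naive MB477 flies, RNAi went with lower levels of 78 genes and higher levels of 1 (background 30.5% lower and 30.6% higher), and the median log2 change was -0.68. The largest falls were those of RpL39 (-1.01 ± 0.08, edgeR adjusted p = 8.96e-15), RpL34a (-0.95 ± 0.08, edgeR adjusted p = 5.6e-16), RpS14a (-0.95 ± 0.05, edgeR adjusted p = 4.2e-35) and RpL28 (-0.95 ± 0.05, edgeR adjusted p = 3.87e-34). RpL22 rose by 0.20 ± 0.05 (edgeR adjusted p = 8.48e-05), from 507, 493 and 499 CPM to 567, 598 and 553 CPM. RpL23A stayed at 830.0 to 875 CPM against 836 to 860.4 CPM, with a change of 0.01 ± 0.04. Muscle markers fell for 12 of 12 and cuticle genes for 29 of 47, with 2 higher, in the same comparison. Photoreceptor markers rose for 9 of 13 and fell for 3, Kenyon cell markers rose for 8 of 12 and fell for 4, and glial markers rose for 9 of 10. The part of these lists was not tested. This comparison and those of activation in MB477 and of MB477 against MB131 share the naive MB477 libraries, so their values for a gene are not independent.

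After activation, RNAi in MB477 changed few of the genes: 12 were higher and 2 lower (background 11.9% and 10%), with a median of 0.04. The share of members called higher, 12 of 82, was near the background, and that called lower, 2 of 82, was below it. RpL23, which faces the small subunit, rose by 0.21 ± 0.06 (edgeR adjusted p = 0.0119), RpL13 by 0.19 ± 0.04 (edgeR adjusted p = 0.000442), RpS30 by 0.17 ± 0.05 (edgeR adjusted p = 0.00268) and RpL37A, a gene other than RpL37a, by 0.17 ± 0.06 (edgeR adjusted p = 0.0394). RpL13 went from 633, 618 and 620.1 CPM to 730.5, 707 and 698 CPM without overlap. RpS29 had a log2 change of -0.20 ± 0.05 (edgeR adjusted p = 0.00139), from 442, 477 and 434 CPM to 412, 394 and 374 CPM, and RpL23A had -0.11 ± 0.04 (edgeR adjusted p = 0.0363). Without replicate 1 of the activated RNAi group 3 genes were called, and without activated replicate 2 or 3 of MB477 there were 6 and 7. The authors' deposited table called 18 higher and 3 lower. Muscle markers fell for 9 of 12, photoreceptor markers for 8 of 13 and fat body markers for 6 of 7, and Kenyon cell markers rose for 11 of 12; their part was not tested.

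Between the naive groups of the 2 lines, 79 genes were higher in MB477 than in MB131 and 1 was lower (background 29% higher and 31.6% lower), with a median log2 difference of 0.86 that lay above 88.5% of all genes tested. RpL39 (1.18 ± 0.08, edgeR adjusted p = 6.07e-17), RpL34a (1.16 ± 0.08, edgeR adjusted p = 2.28e-19), RpL34b (1.09 ± 0.05, edgeR adjusted p = 1.58e-36) and RpL36A (1.05 ± 0.05, edgeR adjusted p = 1.95e-33) differed most. RpL22 was lower by -0.15 ± 0.05 (edgeR adjusted p = 0.00371), at 507, 493 and 499 CPM in MB477 against 574, 562 and 521 CPM in MB131, without overlap. RpS15Ab (0.27 ± 0.14) and RpS5b (0.07 ± 0.79) were not called. In the same comparison muscle markers were higher for 9 of 12 and lower for 2, and cuticle genes were higher for 23 of 47 and lower for 6. Fat body markers were higher for 6 of 7 with a median of 0.84, while glial markers were lower for 8 of 10, Kenyon cell markers for 8 of 12 with 4 higher, and photoreceptor markers for 8 of 13 with 4 higher. The part of these lists was not tested.

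To ask which genes moved differently from the rest of the ribosome, the same test was run with each library scaled to its summed counts over the 87 genes. This scaling takes out the change that the members share and shifts all other genes by it. The shares of all genes given as background here are therefore no like measure for the members. In the comparisons without naive MB477 flies few members departed from the sum. With activation in MB131, RpL15 (-0.16, edgeR adjusted p = 0.0116) and RpS28b (-0.14, edgeR adjusted p = 0.0448) fell behind it (background 26.6% in either direction, 4.91% ahead and 21.7% behind). In MB131 with RNAi these were RpL15 (-0.21, edgeR adjusted p = 0.000635), RpS3A (-0.18, edgeR adjusted p = 0.00335) and RpS27A, which is made as a fusion with ubiquitin (-0.17, edgeR adjusted p = 0.0135; background 41.5%, 4.59% ahead and 36.9% behind). In MB477 with RNAi, RpLP1 (0.14, edgeR adjusted p = 0.0261) ran ahead and RpL34a (-0.19, edgeR adjusted p = 0.0492) and RpL15 (-0.12, edgeR adjusted p = 0.0427) behind (background 53.9%, 4.77% ahead and 49.1% behind). In flies lacking CsChrimson no gene departed by edgeR, and 3 did at an unadjusted p under 0.05 (background 18%, 4.98% ahead and 13% behind).

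RpL15, of the large subunit, was the only gene to depart in 3 of the 5 activation comparisons, those of MB131, MB131 with RNAi and MB477 with RNAi. Its levels in MB131 were 494, 469 and 451 CPM when naive and 456, 473 and 461 CPM when activated, so the groups overlapped while most other members were higher. With RNAi they were 438, 417 and 419 CPM when naive and 436, 435 and 430.3 CPM when activated, again overlapping. RpL15 shares 68 exon bases with a snoRNA gene on its own strand. RNAi in naive MB131 left RpL13 ahead of the sum (0.18, edgeR adjusted p = 0.00586; background 22.3%, 21% ahead and 1.34% behind), and RNAi in activated MB131 gave no departure by edgeR, with 1 at an unadjusted p under 0.05 (background 10.6%, 7.64% ahead and 2.97% behind). RNAi in activated MB477 gave RpL23 (0.19) and RpL13 (0.16) ahead and RpS29 (-0.23) and RpL23A (-0.14) behind (background 18%, 8.48% ahead and 9.5% behind). These small counts moved with single libraries: with activation in MB131 there were 0 without activated replicate 3 and 4 without naive replicate 1 or 3. In MB477 with RNAi 0 or 1 were left whichever library of its groups was left out. RNAi in activated MB477 gave 1 without replicate 2 of the RNAi group.

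Where naive MB477 flies took part, more genes departed from the sum, among the members as among all genes. Activation in MB477 left 55 genes apart from the sum, 18 ahead and 37 behind (background 60.5%, 46.7% ahead and 13.8% behind), RNAi in naive MB477 left 52, 17 ahead and 35 behind (background 68.1%, 61% ahead and 7.12% behind), and MB477 against MB131 left 51, 36 ahead and 15 behind (background 74.1%, 5.04% ahead and 69.1% behind). Over both directions together, the members' shares were near or below those of all genes. By direction they were not: more members than all genes trailed in the first 2 comparisons and ran ahead in the third. The scaling shifts all other genes by the members' own change, so the shares by direction are no like measure and no conclusion is drawn. RpL23A led with activation in MB477 at 0.74 relative to the sum, followed by RpL22 at 0.68, RpS4 at 0.45 and RpL3 at 0.44. RpL34a trailed at -0.59 and RpS14a at -0.49. The stalk base RpLP0 ran ahead at 0.23 (edgeR adjusted p = 6.26e-05), while its own log2 change of -0.07 did not pass the test.

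Changes varied with gene length, most strongly in comparisons with naive MB477 flies. The tested members had 288 to 3835 bases of summed exons, with a median of 921.5, against 1893 for all tested genes. In the activation of MB477, the Spearman correlation of exon length with log2 change was 0.538 across the 82 genes and 0.316 across 11246 genes with a length. It was 0.577 (all genes 0.36) for RNAi in naive MB477 and -0.487 (-0.346) for MB477 against MB131. With activation in MB477 and RNAi it was 0.00965 (-0.171). Smaller values were seen among the members in other comparisons. These were 0.413 (0.0395) for activation in MB131 and -0.0139 (-0.0387) for the same with RNAi. They were 0.202 (0.0231) for activation without CsChrimson and 0.31 (0.203) for RNAi in naive MB131. RNAi in activated flies gave -0.283 (0.0811) in MB131 and -0.385 (-0.0672) in MB477. These correlations are across genes of the same libraries and are descriptions. Longer members were also the more abundant ones, and mean level gave 0.538 in the activation of MB477.

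By length class, 26 of the 27 shortest members fell with activation in MB477 (median -0.51), 23 of the middle 27 (median -0.41) and 17 of the 28 longest (median -0.24). All tested genes within the same length ranges had medians of -0.48, -0.30 and 0.03. In MB477 against MB131 the medians of the members were 0.91, 0.90 and 0.69, and those of all genes of the same lengths were 0.51, 0.36 and 0.01. With activation in MB477 and RNAi the members' medians were 0.32, 0.32 and 0.33, beside 0.12, 0.05 and 0.01 for all genes. With activation in MB131, 12 of the 27 shortest, 11 of the middle 27 and 23 of the 28 longest were called higher. The members' medians there were 0.11, 0.11 and 0.17, beside -0.017, -0.005 and -0.003 for all genes. Whether length itself plays a part was not tested.

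**Figure D4:**
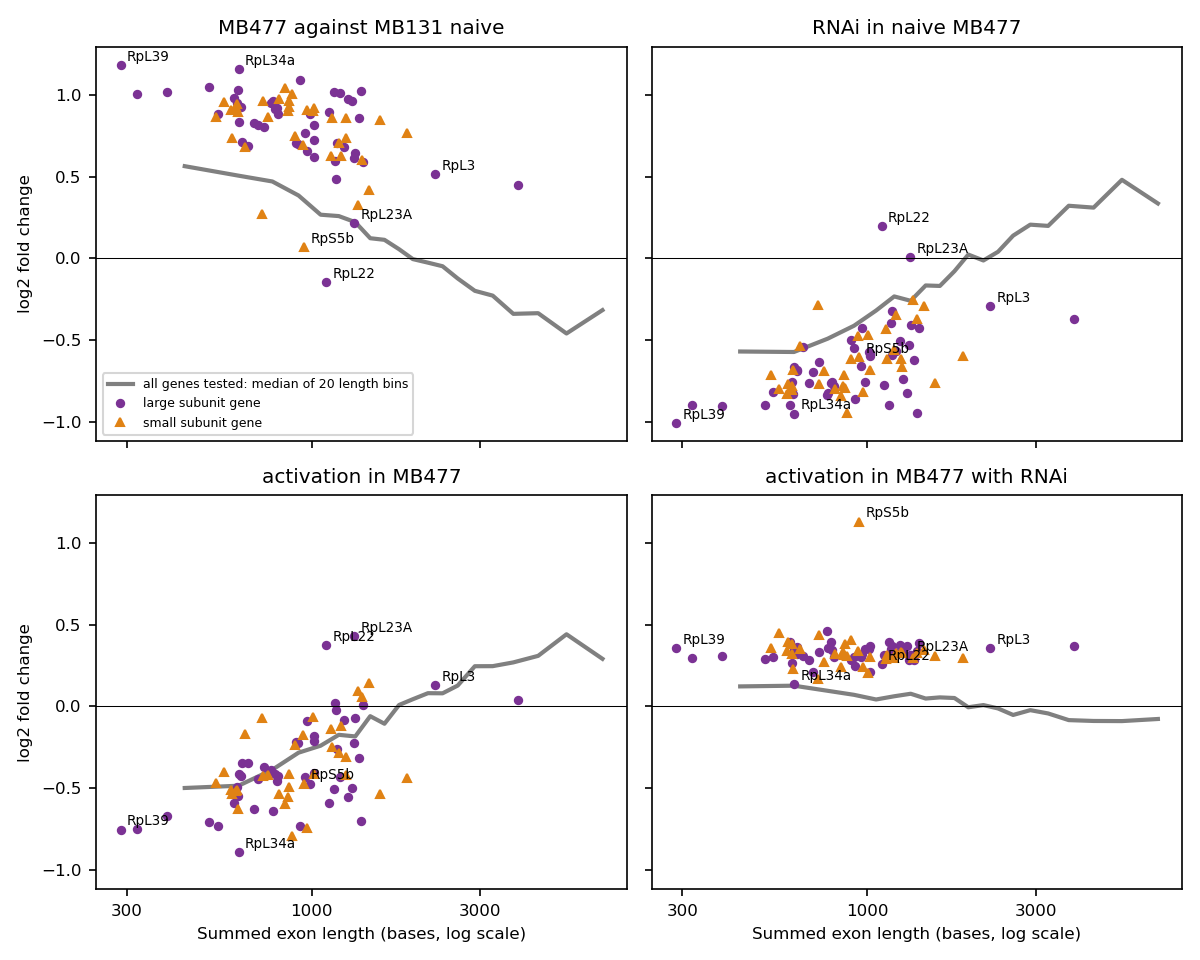
Log2 fold change of the 82 genes against summed exon length in bases (log axis) in 4 comparisons, with large subunit genes as circles, small subunit genes as triangles and the median of all tested genes in 20 bins of length as a grey line. In the activation of MB477 the members rise with length, with RpL22 (0.37) and RpL23A (0.43) on top, and with RNAi they lie in a flat band with a median of 0.33.

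The members of duplicated pairs were used unequally. RpL34a gave 17.7% to 19.9% of the counts of the pair RpL34a and RpL34b over the 10 groups, RpS14b gave 27.3% to 31.1% of RpS14a and RpS14b, and RpS15Ab 4.13% to 5.48% of RpS15Aa and RpS15Ab. RpS5b gave 0.0703% to 0.184% of its pair with RpS5a. In the pairs of RpL10Aa, RpL37b, RpS10a, RpS19b and RpS28a, the lesser copy gave at most 0.0873%. RpS14a (X from 7933742 to 7934677) and RpS14b (X from 7934898 to 7935792) are neighbours. RpS14b had its lowest share, 27.3%, in naive MB477 flies, whose libraries at 27.1% to 27.6% lay below all others. Near-identical copies can share reads, and the treatment of reads matching several places is not stated, which leaves these shares uncertain.

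**Figure D5:**
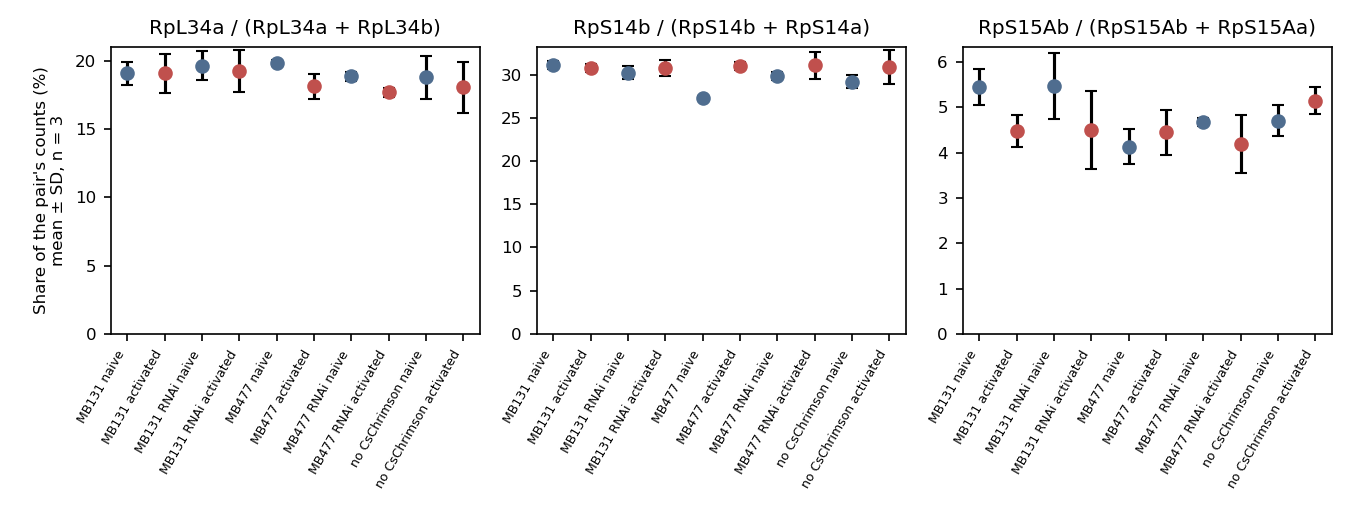
Share (%) of the lesser copy in the summed counts of 3 duplicated pairs, as mean and SD of 3 libraries in each of the 10 groups (blue naive, red activated). RpL34a stays between 17.7% and 19.9%, RpS14b between 27.3% and 31.1% with its lowest value in naive MB477 flies, and RpS15Ab between 4.13% and 5.48%.

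Other genes of the translation machinery moved only in part with these genes. Of all genes tested, 12.7% were higher and 11.8% lower with activation in MB131, and 13.8% and 13% with RNAi. In MB477 these were 31.8% and 27.7%, and 15.6% and 13.1% with RNAi. Without CsChrimson they were 11.1% and 9.98%. Mitochondrial ribosomal protein genes, which serve the ribosomes inside mitochondria, were rarely called with activation outside MB477: 4 of 72 rose in MB131 and 1 fell, 1 rose and 1 fell with RNAi, 2 rose and 1 fell in MB477 with RNAi, and 2 rose without CsChrimson. In MB477, 43 fell and 3 rose, with a median log2 change of -0.42 equal to that of the cytoplasmic genes. Examples are mRpL49 (-1.24 ± 0.15, edgeR adjusted p = 5.55e-12) and mRpL42 (-1.14 ± 0.20), with mRpS5 at 2.27 ± 0.15. Between the naive lines 53 were higher in MB477 and 2 lower (background 29% higher and 31.6% lower).

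Of 6 elongation factor genes, 5 rose in MB131, 5 with RNAi, 4 in MB477 with RNAi and 3 without CsChrimson. In MB477 without RNAi, 3 rose and 1 fell: eEF1alpha2, which delivers aminoacyl-tRNA, rose by 0.84 ± 0.04 (edgeR adjusted p = 2.92e-32), eEF1gamma by 0.63 ± 0.04 and eEF2, the translocase, by 0.57 ± 0.04, while eEF1beta had -0.31 ± 0.05. Of 38 initiation factor genes, 8 rose in MB131, 16 in MB477 with RNAi and 9 without CsChrimson, none falling in any of them. In MB131 with RNAi, 8 rose and 1 fell. In MB477 without RNAi 11 rose, near the 31.8% of all genes, and 16 fell (background 27.7%). The gene eIF4G2, a paralogue of the eIF4G scaffold, rose by 0.38 ± 0.05 in MB131 with RNAi and by 0.39 ± 0.05 in MB477 with RNAi. In MB131 itself the largest were eIF2gamma (0.36 ± 0.08, edgeR adjusted p = 0.000415) and eIF3c (0.27 ± 0.05).

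Among 30 ribosome biogenesis genes, which build and modify the subunits in the nucleolus, 5 rose in MB131, near the background of 12.7%, and 0 fell (background 11.8%). With RNAi 1 rose and 8 fell (background 13.8% and 13%). Nop17l rose in MB131 without and with RNAi, by 1.15 ± 0.06 (edgeR adjusted p = 5.22e-32) and 1.21 ± 0.06. With RNAi, wcd (-1.14 ± 0.27, edgeR adjusted p = 0.000378), the pseudouridine synthase gene Nop60B (-0.87 ± 0.10) and the fibrillarin gene Fib (-0.54 ± 0.10) fell. Of 19 regulators and sensors of ribosome production, 1 rose and 2 fell with activation in MB131, and 4 and 4 with RNAi. In MB477 6 rose and 8 fell, with RNAi 5 and 1, and without CsChrimson 2 and 2. Among them Thor, the translational repressor controlled by the Tor kinase, fell by 0.62 in MB131, by 0.66 with RNAi and by 0.87 in MB477 on the log2 scale. Myc, a growth regulator that raises ribosome production in flies, differed by 0.97 ± 0.08 between naive MB477 and MB131 flies and by -1.03 ± 0.08 with RNAi in naive MB477. Of the 4 tested genes of the ribosome that the name rule left out, sta, which encodes the small subunit protein uS2, rose by 0.22 ± 0.04 in MB131 and by 0.35 ± 0.04 in MB477 with RNAi, and had -0.30 ± 0.04 in MB477. Rack1, of the small subunit head, rose by 0.20 ± 0.04, 0.31 ± 0.04 and 0.16 ± 0.04 in the same 3 comparisons.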

How the data were processed

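Per the submitters' processing notes, the authors used STAR, HTSeq, DESeq2 and the dm6 genome, and deposited whole-number counts of reads per gene for 30 libraries. The use of strand and the treatment of reads matching several places were not given in the sources used here. The authors also deposited a table of log2 fold changes and q-values for 6 comparisons, of which 4 are used here; 1 of its RNAi columns runs opposite to the other, so each was oriented by the counts.

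Genes passing filterByExpr (minimum count 10, minimum total 15) were tested, 11457 in all, holding at least 99.9321% of the counts of each library. All 10 groups of 3 libraries entered 1 model in edgeR 4.0.16 (R 4.3.3, limma 3.58.1; TMM scaling, robust quasi-likelihood fit), with Benjamini-Hochberg adjustment over all genes and a threshold of 0.05. The SE is the log2 change divided by the square root of F. Levels are CPM on TMM-scaled library sizes, and log2 CPM used a prior count of 2. Relative tests used each library's summed ribosomal protein counts as its size. DESeq2 1.42.0, other scalings, no filter, smaller models, a replicate block and leaving out each library were tried. The procedure was tested on simulated data. Depth was 8291599 to 14344348 counts, and floors cover counting error only.

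Libraries with the same replicate number did not deviate together (correlations from -0.0317 to 0.055), so the numbers do not pair them. Of the 87 genes, 82 matched the Ensembl dm6 annotation by identifier and 5 by name. The named genes are the 5 highest and lowest per length, the 4 largest changes in each direction past the test, those called against the majority, duplicated pairs, genes below the filter, and up to 4 per other list. RpLP1 and RpLP2 in MB131, RpLP0 in MB477, RpL4 and RpL23A were added after their values were seen. Members and lists were chosen with earlier results of these data known. Promoter motifs were not analysed here. A result on 1 gene is not reported here.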

Additional observations from a re-analysis of the deposited data

Results flagged for a closer look

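Responses to activation were compared between groups by interaction terms in edgeR. The change of 7 ribosomal protein genes differed between MB131 flies with and without RNAi, and that of 78 differed between MB477 flies with and without RNAi. Against flies lacking CsChrimson, the change of 1 gene differed in MB131, and that of 69 genes in MB477. The 2 counts for MB477 both rest on the naive MB477 libraries.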

How the results depend on the processing

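The counts of called genes in the 5 comparisons with MB477 naive flies, and in activation with RNAi in both lines, stayed within 1.5 times their values under every alternative tried. Under scaling by total counts, the median log2 change of all genes ranged from -0.0923 to 0.0156 over the comparisons. That scaling gave 22 genes for activation in MB131, 7 for activation without CsChrimson and 0 for the difference between their responses. Fitting only the groups compared gave 8 for activation without CsChrimson, 10 for RNAi in activated MB131 and 0 for that difference. Without a filter on low counts, genes departing from the sum were 1 with activation in MB131 and 0 in MB477 with RNAi. The causes were not tested. The replicate block gave 45 genes for activation in MB131 and, in MB477 with RNAi, 2 departing from the sum; it changed no other count. Leaving out 1 library at a time gave ranges of calls of 22 to 54 (activation in MB131), 67 to 74 (with RNAi), 69 to 71 (MB477), 79 to 79 (MB477 with RNAi), 2 to 24 (without CsChrimson), 25 to 67 (RNAi in naive MB131), 1 to 10 (activated MB131), 79 to 79 (naive MB477), 3 to 11 (activated MB477), 4 to 16 and 78 to 80 (interactions in MB131 and MB477), 0 to 5 and 67 to 73 (MB131 and MB477 against no CsChrimson) and 80 to 80 (MB477 against MB131). Departures from the sum ranged, in the same order from activation in MB131 to RNAi in activated MB477, over 0 to 4, 2 to 4, 48 to 56, 0 to 1, 0 to 1, 1 to 2, 0 to 0, 47 to 50 and 1 to 4, and over 45 to 50 for MB477 against MB131. Of 63 single-gene results, 52 kept their call under every alternative, 11 lost it in at least 1 and 0 reversed. TMM factors from the other genes, an alternative chosen after seeing the data, gave 18 genes without CsChrimson and 8 for RNAi in activated MB131, and changed no other count of calls. Low depth limits RpS5b and the 5 genes below the filter.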
